A study of Mus musculus with 4 samples.

Results

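The genes described here mark T cells and natural killer (NK) cells. They were taken by name: the CD3 chains Cd3d, Cd3e and Cd3g, the coreceptors Cd4 and Cd8a, the interleukin-2 receptor chain Il2ra, and the NK and cytotoxic genes Nkg7, Gzma, Ncr1 and Klrb1c. These are 10 of the 55401 genes in the deposited tables, and all 10 were among the 18596 genes with a mean of at least 0.1 FPKM (fragments scaled to transcript length and library size) over the 4 libraries. RNA-seq was made from the tibial bone marrow of male C57/B6 mice that were 8 weeks old at the start and were made obese with a high-fat diet. The obesity group (Ob, 2 libraries) had no intervention beyond this diet. The exercise group (Ob + Exe, 2 libraries) kept the diet and ran on a treadmill at moderate intensity for 12 weeks. No lean or normal-diet marrow was analysed here, and each group was represented by 2 of its mice. The p values therefore rest on the spread between 2 libraries a group, combined in limma with the spread of other genes. Beside bone marrow as tissue, the labels hold a cell line entry (mesenchymal stem cells) and a cell type entry (fibroblast), whereas erythroid and neutrophil transcripts led these libraries (Hbb-bs 17443 to 43528 and S100a8 11901 to 35869 scaled FPKM).

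T cells recognise antigen with an αβ or γδ receptor that signals through the CD3 chains, and CD4 or CD8 binds the presenting MHC molecule beside it. NK cells carry no such receptor. They weigh activating and inhibitory surface receptors and kill with perforin and granzymes stored in granules. Bone marrow is the site of NK cell development and holds recirculating and memory T cells, but both are minor populations in it next to maturing granulocytes and red cells.

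With exercise, 1 of the 10 genes passed the thresholds of the study's methods (p under 0.05 before adjustment and more than 1 on the log2 scale in either direction), and it was lower. This was Il2ra, at 1.70 ± 0.115 scaled FPKM in Ob and 0.666 ± 0.268 in Ob + Exe (SD, n = 2 each). The same thresholds called 3.74% of all genes tested in either direction and 2.74% of all genes tested as lower. An unadjusted p under 0.05 was reached by 1 of the 10 genes and by 5.05% of all genes. After Benjamini-Hochberg adjustment of the limma p values over all genes, 0 of 18596 genes (0%) had an adjusted p under 0.05, against 940 with an unadjusted p under 0.05. The adjusted p of the 10 genes lay between 0.959 and 0.99. The fitted log2 fold change was above 0 for 6 and below 0 for 4 of them, with a median of 0.17, beside -0.02 over all genes tested. In bulk marrow, fewer cells of a type and less RNA per cell cannot be told apart.

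The spread between libraries of one group was wide. For 9 of the 10 genes, the ratio between the 2 libraries of at least one group was larger than the ratio between the group means. In 3 genes the Ob + Exe libraries did not overlap the Ob libraries, 2 lower (Cd8a, Il2ra) and 1 higher (Cd4), while 32.6% of all genes did not overlap, 18.3% lower and 14.3% higher. The library numbered 1 had the higher value for 9 of 10 genes in Ob and for 7 of 10 in Ob + Exe. In both groups at once this held for 6 genes (Cd3d, Cd3g, Cd8a, Nkg7, Gzma and Ncr1) beside 18.4% of all genes. The median standard error of the log2 fold change was 0.52 for the 10 genes and 0.41 for all genes tested.

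**Figure D1:**
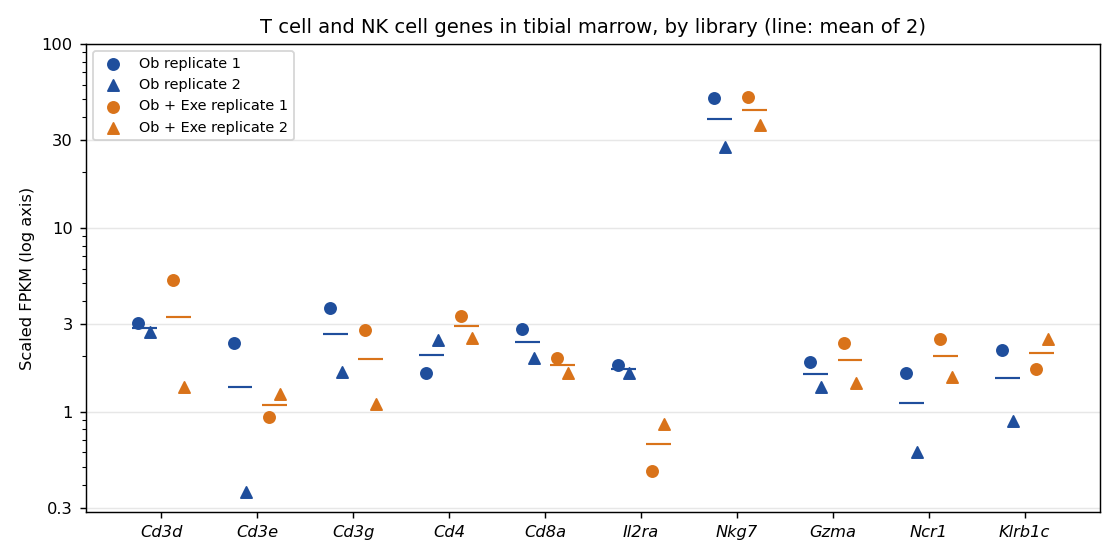
Scaled FPKM (log axis) of the 10 T cell and NK cell genes in each library. Circles are libraries numbered 1, triangles libraries numbered 2, blue Ob, orange Ob + Exe, and each short line is the mean of 2 libraries. Nkg7 stands above the other 9 genes, and in Il2ra both Ob + Exe libraries lie below both Ob libraries.

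The depth behind these values was uneven between libraries. The aligned bases amounted to 9952 and 9639 Mb in Ob and to 8806 and 8702 Mb in Ob + Exe, and the genes listed above 0 were 23309 and 20663 in Ob against 17752 and 19291 in Ob + Exe. Read equivalents (coverage times transcript length over 150, the bases of a read) summed over the 10 genes to 5757 and 3631 in Ob against 4962 and 3305 in Ob + Exe. The genes outside the CD3 locus lie at chr2:11642807-11693193 (Il2ra), chr6:71373427-71379173 (Cd8a), chr6:124864692-124888221 (Cd4), chr6:128778485-128789215 (Klrb1c), chr7:4337724-4345164 (Ncr1), chr7:43437073-43438249 (Nkg7) and chr13:113093825-113100981 (Gzma) of GRCm38. A gene such as Cd3e or Gzma rested on 36 to 241 read equivalents in a library, and 9 of the 10 genes had a mean under 5 FPKM.

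The 3 CD3 chains are the signalling part that every T cell receptor needs at the surface. Cd3g, Cd3d and Cd3e lie together in 40056 bases of chromosome 9 (GRCm38, chr9:44969572-45009627). Cd3g on the minus strand and Cd3d on the plus strand start 1355 bases apart and run away from each other. Each of the 3 chains ranked the libraries in an order of its own. Cd3d was at 3.02 and 2.70 in Ob against 5.19 and 1.35 in Ob + Exe. The Ob + Exe libraries thus held both the highest and the lowest value, and the log2 fold change was -0.09 (SE 0.64, adjusted p = 0.99, limma). Cd3e was at 2.36 and 0.365 in Ob against 0.931 and 1.24 in Ob + Exe. Here the Ob libraries were the extremes, and the log2 fold change of 0.14 had the widest 95% interval of the 10 genes, from -1.95 to 2.22. Cd3g was at 3.68 and 1.64 in Ob against 2.78 and 1.09 in Ob + Exe, and the groups overlapped (log2 fold change -0.47, SE 0.61, adjusted p = 0.974). The fit averages log values, so its sign differs from that of the group means for Cd3d (2.86 in Ob and 3.27 in Ob + Exe) and for Cd3e (1.36 in Ob and 1.09 in Ob + Exe). The ratio of Cd3d to Cd3e ran from 1.09 to 7.40 over the 4 libraries. Summed, the 3 chains reached 9.07 and 4.70 FPKM in Ob against 8.90 and 3.69 in Ob + Exe, and the pairs of values interleave. With 2 against 2 libraries, the smallest p that an exact two-sided permutation test can give for such a sum is 0.333.

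Cd4, the coreceptor of helper and regulatory T cells, which some dendritic cells carry too, was at 1.61 and 2.46 in Ob against 3.30 and 2.53 in Ob + Exe. Both Ob + Exe libraries were above both Ob libraries, with 2.04 ± 0.601 against 2.91 ± 0.550 (SD, n = 2 each). The log2 fold change of 0.51 did not pass the test (95% interval -0.46 to 1.49, adjusted p = 0.959, limma). Cd8a, the chain of the coreceptor of cytotoxic T cells, was at 2.81 and 1.97 in Ob against 1.96 and 1.61 in Ob + Exe. The groups did not overlap only because the second Ob and the first Ob + Exe library, almost equal, fell in this order (log2 fold change -0.38, 95% interval -1.35 to 0.59, adjusted p = 0.964). The ratio of Cd4 to Cd8a was 0.575 and 1.25 in Ob against 1.69 and 1.57 in Ob + Exe. Cd8b1, the partner chain of Cd8a, was at 2.35 and 0.984 in Ob against 1.29 and 0.670 in Ob + Exe, which overlap. Its ratio to Cd8a lay between 0.415 and 0.838.

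Il2ra encodes CD25, the chain that gives the interleukin-2 receptor its high affinity. It is known from activated and regulatory T cells and, in mouse marrow, from late pre-B cells. Its scaled FPKM was 1.78 and 1.62 in Ob against 0.476 and 0.855 in Ob + Exe. Both exercised libraries were below both others, and the Ob libraries lay close together. The log2 fold change was -1.28 (SE 0.49, 95% interval -2.50 to -0.06) with an unadjusted p of 0.0425 and an adjusted p of 0.959 (limma). Over 14 alternative settings the log2 fold change stayed below 0, from -1.64 to -0.71, with an adjusted p between 0.373 and 1. The call was lost in 8 of them, among these a minimum of 1 FPKM, no minimum, quantile normalization and the replicate block, with unadjusted p values of 0.0843, 0.0771, 0.0546 and 0.0721. Leaving out either Ob library or the first Ob + Exe library also ended it, and without the latter the log2 fold change was -0.91. Read equivalents were 436 and 451 in Ob against 124 and 207 in Ob + Exe. Nearly all of them lay on the full-length form, Il2ra-201, with 421 and 443 in Ob against 124 and 207 in Ob + Exe. A short single-exon form, Il2ra-203, held 18.5% of the gene's FPKM in the first Ob library and 0% in the other libraries, where it was listed at 0.

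The promoter of Il2ra is printed since it is the only called gene of the 10. It covers chr2:11642542-11642841 (plus strand, RefSeq, GRCm38.p6), from 250 bases before to 50 bases after the start. None of the 5 motifs searched below is in it, so it holds no capitals.
Il2ra: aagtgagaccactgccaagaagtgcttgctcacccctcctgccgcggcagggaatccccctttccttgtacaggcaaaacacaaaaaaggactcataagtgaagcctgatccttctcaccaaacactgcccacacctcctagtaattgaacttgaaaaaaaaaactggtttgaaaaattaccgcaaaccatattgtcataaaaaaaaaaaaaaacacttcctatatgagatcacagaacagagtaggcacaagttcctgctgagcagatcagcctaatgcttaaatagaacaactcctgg

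T cell genes and pre-B and B cell genes were set beside Il2ra. Foxp3, the factor that defines regulatory T cells, was low, at 0.263 and 0.185 in Ob against 0.188 and 0.157 in Ob + Exe, which overlap. Ctla4 was at 0.766 and 0.158 in Ob against 0.972 and 0.390 in Ob + Exe (log2 fold change 0.62). Icos (-0.07) and Ikzf2 (0.11) changed less, and all of these overlapped between groups. Of the 10 pre-B and B cell genes, 9 were lower and 1 higher in Ob + Exe. Without overlap were 6 of the 10, all lower, beside 18.3% of all genes tested. The median log2 fold change of the 10 was -0.44. Their summed FPKM was 250 and 262 in Ob against 193 and 160 in Ob + Exe, and none was at 0. By the same thresholds 2 of them were called lower, where 2.74% of all genes tested were called lower. The lowest adjusted p of the 10 was 0.941 (limma). Cd79a, a signalling chain of the B cell receptor, was at 48.1 and 44.2 in Ob against 21.3 and 23.5 in Ob + Exe (log2 fold change -1.04, SE 0.20, unadjusted p of 0.00229). Igll1, a part of the surrogate light chain of the pre-B cell receptor, was at 14.3 and 12.8 in Ob against 4.94 and 3.54 in Ob + Exe (log2 fold change -1.67, SE 0.28, unadjusted p of 0.0012, limma). The B-lineage genes of highest level were Cd79b, at 69.3 and 62.5 in Ob against 56.5 and 45.5 in Ob + Exe, and Vpreb3, at 48.3 and 52.0 in Ob against 32.5 and 31.5 in Ob + Exe. The part of pre-B cells in the lower Il2ra was not tested.

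**Figure D2:**
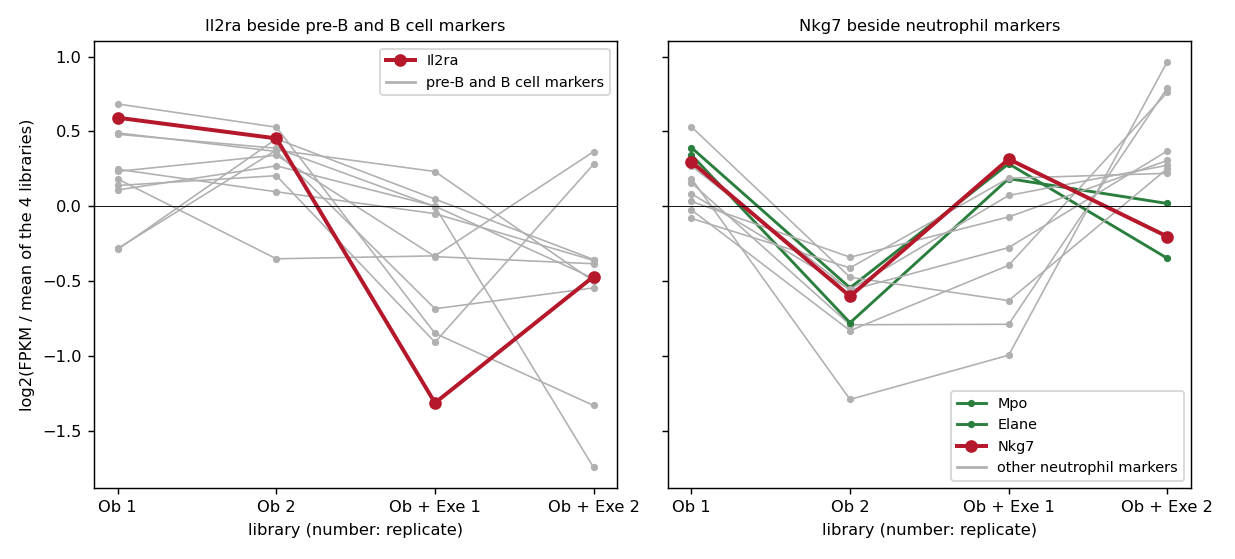
Left, log2 of the FPKM of Il2ra (red) and of 10 pre-B and B cell genes (grey) over each gene's mean of the 4 libraries. Right, Nkg7 (red) beside Mpo and Elane (green, picked after their values were seen) and 8 other neutrophil genes (grey). Lines only join the values of one gene. The mean of Il2ra and of 9 of the 10 B-lineage genes was lower in Ob + Exe, and Nkg7 and 9 of the 10 neutrophil genes (all but Ngp) were lowest in the second Ob library. Nkg7, Mpo and Elane were higher in the first than in the second Ob + Exe library, and the 8 other neutrophil genes were lower.

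Nkg7 is a membrane protein of cytotoxic granules. It had the highest level of the 10 genes, at 51.0 and 27.4 scaled FPKM in Ob against 51.7 and 36.1 in Ob + Exe. The groups overlapped, and the first libraries of both groups were nearly equal (log2 fold change 0.21, 95% interval -0.68 to 1.09, adjusted p = 0.975, limma). Gzma, granzyme A, a serine protease of killer cells, was at 1.87 and 1.36 in Ob against 2.37 and 1.43 in Ob + Exe (log2 fold change 0.20, SE 0.45, adjusted p = 0.977). Ncr1 encodes NKp46, an activating receptor that marks NK cells and related innate lymphoid cells. Its values were 1.62 and 0.600 in Ob against 2.49 and 1.54 in Ob + Exe. The first Ob library lay within the range of the Ob + Exe libraries, and the log2 fold change of 0.91, the largest positive value of the 10, did not pass the test (95% interval -0.54 to 2.36, adjusted p = 0.959). Klrb1c, the receptor that carries the NK1.1 antigen of C57BL/6 mice, was at 2.17 and 0.886 in Ob against 1.70 and 2.49 in Ob + Exe (log2 fold change 0.53, SE 0.54, adjusted p = 0.963). The second Ob library was lowest of the 4 in Nkg7, Gzma, Ncr1 and Klrb1c alike. Gzma, Ncr1 and Klrb1c summed to 5.65 and 2.84 FPKM in Ob against 6.57 and 5.47 in Ob + Exe.

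**Figure D3:**
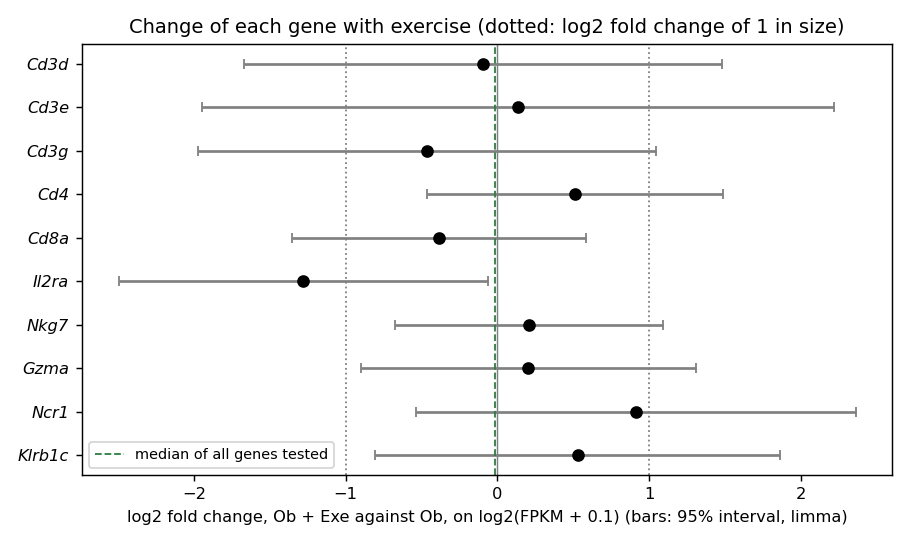
Fitted log2 fold change of each of the 10 genes, Ob + Exe against Ob, on the log2(FPKM + 0.1) scale. Points are estimates, bars their 95% intervals from limma, dotted lines a change of 1 in size, and the dashed line the median of all genes tested. The interval of Il2ra, from -2.50 to -0.06, is the only one of the 10 that leaves out 0.

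Nkg7 was 20.2 to 27.3 times as high as Gzma and 20.7 to 45.6 times as high as Ncr1 in the same library. It was also set beside Mpo and Elane, granule enzymes made by neutrophil precursors, which were picked from the neutrophil list after their values were seen. Mpo was at 308 and 161 in Ob against 286 and 185 in Ob + Exe. Elane was at 434 and 200 in Ob against 389 and 347 in Ob + Exe. The ratio of Nkg7 to Mpo lay between 0.166 and 0.196 and that to Elane between 0.104 and 0.137. As Mpo and Elane were picked with their values known, these narrow ranges are no test. Nkg7, Mpo and Elane were higher in the first than in the second Ob + Exe library, whereas the other 8 neutrophil genes were higher in the second. Over the whole list of 10 neutrophil genes, 9 were higher and 1 lower in Ob + Exe, none was called, and 1 (Camp) did not overlap. Their summed FPKM was 47414 and 27115 in Ob against 34818 and 63422 in Ob + Exe. The part of neutrophil precursors in the level of Nkg7 was not tested.

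The 10 genes have 32 transcripts in the tables, 20 protein-coding, 10 with a retained intron and 2 others, and 4 of them were listed at 0 in all libraries. StringTie divides the reads over a gene among its transcripts, and for several genes the division differed between libraries. Gzma had all of its FPKM on Gzma-201 in both libraries numbered 1 and all of it on Gzma-202 in both libraries numbered 2. The forms differ in their first coding exon. Both starts are shown from the start codon, with the first 20 bases of the shared next exon in lower case and each form's own coding bases in capitals (GRCm38, minus strand, chr13:113100882-113100951 for Gzma-201 and chr13:113100573-113100633 for Gzma-202).
Gzma-201: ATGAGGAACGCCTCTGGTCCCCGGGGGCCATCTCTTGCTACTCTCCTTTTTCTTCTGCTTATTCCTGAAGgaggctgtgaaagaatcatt
Gzma-202: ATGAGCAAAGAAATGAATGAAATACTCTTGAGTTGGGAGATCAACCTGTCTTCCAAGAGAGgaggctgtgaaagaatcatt

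In Cd8a, the share of Cd8a-201 was 23.9% and 43.3% in Ob against 75.8% and 0% in Ob + Exe. That of Cd8a-202 was 42.1% and 20.6% in Ob against 0% and 77.3% in Ob + Exe. The Ob + Exe libraries thus stood at opposite ends. These forms differ by a 31-base coding exon, which encodes part of the cytoplasmic tail. The exon is in capitals, with 30 bases on either side (GRCm38, plus strand, capitals at chr6:71375888-71375918). The form with a retained intron, Cd8a-203, held 34.0% and 36.2% in Ob against 24.2% and 22.7% in Ob + Exe.
Cd8a-201: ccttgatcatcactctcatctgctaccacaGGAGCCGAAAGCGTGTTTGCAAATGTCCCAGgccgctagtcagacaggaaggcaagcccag
Cd8a-202: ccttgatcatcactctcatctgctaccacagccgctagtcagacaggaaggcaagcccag

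Klrb1c-203, which starts one inner exon 9 bases earlier than Klrb1c-201, held 14.4% and 6.04% in Ob against 19.6% and 55.1% in Ob + Exe. In read equivalents this was 35.4 and 5.94 in Ob against 32.6 and 125 in Ob + Exe. The second Ob + Exe library stood apart from the other libraries in this share. The 9 bases are in capitals (GRCm38, minus strand, chr6:128784251-128784259).
Klrb1c-203: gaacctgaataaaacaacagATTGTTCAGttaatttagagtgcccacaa
Klrb1c-201: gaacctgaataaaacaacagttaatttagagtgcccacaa

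Nkg7 had the most reads of the 10 genes. Its 4-exon form held 86.0% and 89.98% in Ob against 88.0% and 79.1% in Ob + Exe. A form that skips a 135-base coding exon (chr7:43437775-43437909) held 13.6% and 8.90% in Ob against 11.8% and 20.6% in Ob + Exe. Ncr1 was given at 89.8% to its 7-exon form in the first Ob library and at 100% to its 6-exon form in the other libraries. The 6-exon form keeps a 77-base intron at chr7:4337783-4337859. One form held at least 96.5% of Cd4 in each library. Cd3g-201 held 92.0% and 75.9% in Ob against 92.8% and 72.2% in Ob + Exe, and the rest lay mostly on a form with a retained intron. No test was made on these shares.

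**Figure D4:**
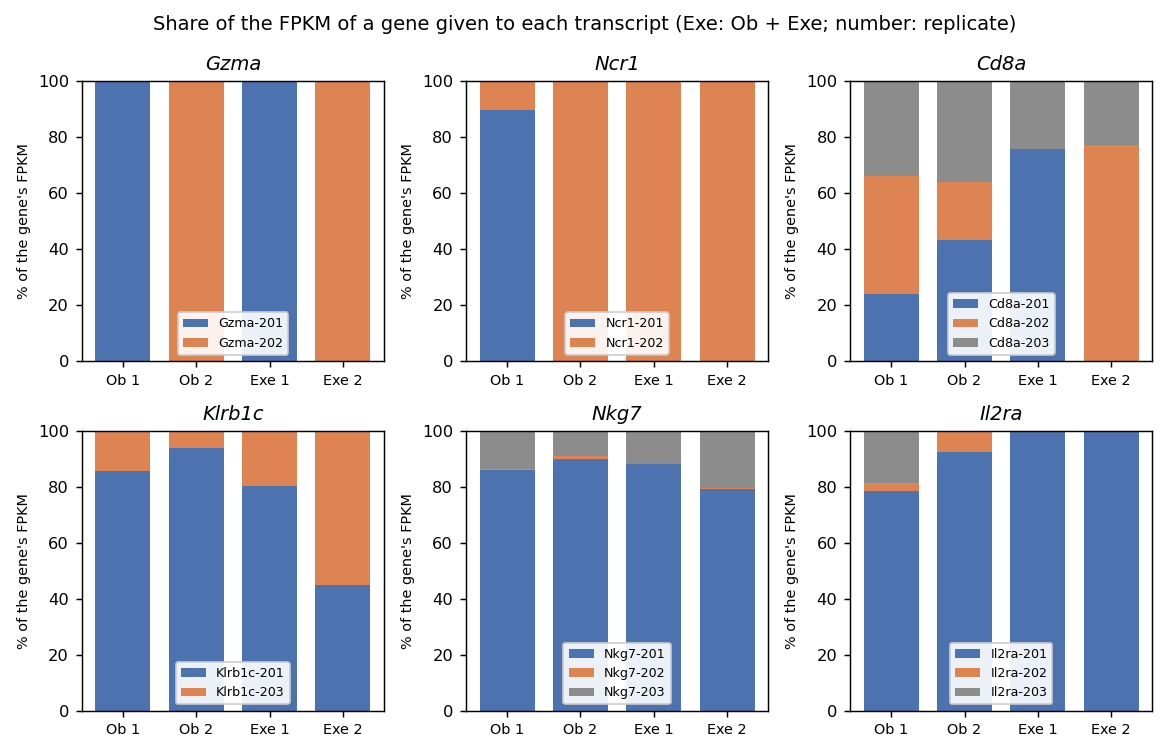
Share of a gene's FPKM given to each transcript, in percent, for Gzma, Ncr1, Cd8a, Klrb1c, Nkg7 and Il2ra in each library (Exe, Ob + Exe). Gzma lies wholly on one form or the other, and the leading form of Nkg7 holds 79.1% or more in every library.

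Of the 10 genes, 9 had a promoter in the RefSeq table (Cd4 had none), 250 bases before to 50 bases after the start. Of 5 motifs searched on both strands, the RUNX letters TGTGGT were in 4 of the 9, beside 16.8% of all 32851 promoters. The 4 were Gzma, Klrb1c, Ncr1 and Nkg7, and the 5 T cell genes with a promoter did not hold these exact letters. Variants of the letters were not searched, so the split holds for this string only. RUNX3 is a factor of NK cells and of cytotoxic T cells. The windows are shown with the letters or their reverse complement in capitals and 22 bases on either side (GRCm38.p6, gene strand). They lie at chr13:113101004-113101053 for Gzma, chr6:128788703-128788752 for Klrb1c, chr7:4337517-4337566 and chr7:4337652-4337701 for Ncr1, and chr7:43437033-43437082 for Nkg7.
Gzma: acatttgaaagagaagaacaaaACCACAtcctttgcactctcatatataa
Klrb1c: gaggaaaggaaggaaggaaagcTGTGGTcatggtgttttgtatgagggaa
Ncr1, first: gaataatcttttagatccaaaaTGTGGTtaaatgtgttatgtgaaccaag
Ncr1, second: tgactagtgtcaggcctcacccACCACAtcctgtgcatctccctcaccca
Nkg7: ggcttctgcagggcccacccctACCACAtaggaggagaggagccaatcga

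The other letters were TCF/LEF CTTTGA (Cd3d, 16.0% of all promoters), E-box CAGCTG (Cd3g and Cd8a, 16.3%), ETS CAGGAAG (Cd3e and Nkg7, 13.3%) and STAT TTCNNNGAA (Cd3d and Nkg7, 8.30%). No match overlapped another. These matches describe the sequence and are no measure of binding. Runx3 itself was at 3.28 and 1.81 FPKM in Ob against 2.46 and 1.61 in Ob + Exe, which overlap.

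Wider lists of T cell and NK cell genes gave few calls, and the lowest adjusted p was 0.959 in each of 5 lists and 0.794 among the receptor segments (limma). Of 31 tested genes of the T cell receptor complex and its signalling, 0 were called and 0 had an unadjusted p under 0.05 in limma, 15 were lower and 16 higher, and the median log2 fold change was 0.00. The constant genes Trac, Trbc1 and Trbc2, which are shared by all αβ receptors, summed to 21.1 and 16.2 in Ob against 26.7 and 15.2 in Ob + Exe. Like the summed CD3 chains, they were higher in the first than in the second library of each group. Trbc1 and Trbc2 are near-identical copies, so their separate values are uncertain. Zap70, the kinase that the CD3 chains recruit, was at 1.42 and 1.49 in Ob against 3.43 and 1.79 in Ob + Exe (log2 fold change 0.73, SE 0.45). Its groups did not overlap. Of the 31 genes, 3 were lower and 5 higher without overlap, beside 18.3% and 14.3% of all genes tested. The most abundant genes of the list are shared with other leukocytes, namely Ptprc (CD45), at 117 and 103 in Ob against 138 and 191 in Ob + Exe, Lcp2 at 28.4 to 33.7 and Ptpn22 at 16.0 to 18.4.

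Among 22 tested genes of T cell identity, 15 were lower and 7 higher, none was called or had an unadjusted p under 0.05 in limma, and 6 did not overlap, all lower. The median log2 fold change was -0.19. Over all genes tested, 18.3% were lower and 14.3% higher without overlap. Lef1, a factor of T cell and B cell precursors, was at 2.46 and 2.59 in Ob against 1.33 and 1.56 in Ob + Exe (log2 fold change -0.77, SE 0.37). Cd27, a costimulatory receptor, was at 3.66 and 3.16 in Ob against 2.70 and 1.96 in Ob + Exe (-0.54, SE 0.35). Klf2, a factor of quiescent and recirculating lymphocytes, was at 55.1 and 53.1 in Ob against 41.5 and 38.4 in Ob + Exe (-0.44, SE 0.19). Cd44 (36.8 to 68.3), an adhesion receptor, was highest in the second Ob + Exe library, and its groups overlapped.

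Of 38 tested genes of NK receptors and factors, 20 were lower and 18 higher, 8 each way did not overlap, and the median log2 fold change was -0.01. Over all genes tested, 18.3% were lower and 14.3% higher without overlap. The 2 called genes of this list were lower, where 2.74% of all genes tested were called lower. Itga2, the integrin chain CD49b, which NK cells and platelets share, was at 1.39 and 1.39 in Ob against 0.624 and 0.454 in Ob + Exe (log2 fold change -1.23, SE 0.48, unadjusted p of 0.0455). This call was lost in 8 of 13 alternatives, among them the fit with no minimum level (unadjusted p of 0.0789) and the replicate block (unadjusted p of 0.0974). Klrb1a, a relative of Klrb1c, was at 0.365 and 0.627 in Ob and listed at 0 in both Ob + Exe libraries (unadjusted p of 0.0184, limma). Klrb1a reached the minimum level through Ob alone, so its call supports no difference. Of the 7 Ly49 receptor genes tested, 5 were higher and 2 lower in Ob + Exe, and none passed the test. Klra4, Klra7 and Klra8 were at 1.0 to 3.49 in Ob and at 1.80 to 4.97 in Ob + Exe, each without overlap and with log2 fold changes of 0.66, 0.66 and 0.47. Klra6, listed at 0 in the second Ob library, was also higher without overlap, and Klra3 and Klra9 overlapped (0.28 and -0.18). Klra1 went the other way without overlap, at 0.921 and 0.562 in Ob against 0 and 0.446 in Ob + Exe (-1.82, SE 0.97). Reads of such near-identical families can be divided wrongly between members. Ncam1, known as CD56, was at 3.97 and 1.32 in Ob against 5.54 and 5.22 in Ob + Exe (1.19, SE 0.54). Whether NK cells were the source of its RNA was not tested. Eomes, a factor of NK cells, overlapped between groups (0.468 to 1.02), and Tbx21, its relative, was at 0.514 and 0.909 in Ob against 0 and 0.497 in Ob + Exe. The list was led by adaptors and an Fc receptor that myeloid cells share, Fcer1g (236 to 316), Tyrobp (183 to 310) and Fcgr3 (44.8 to 76.7).

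Of 21 tested cytotoxic effector genes, 9 were lower and 12 higher, 0 were called and 0 had an unadjusted p under 0.05 in limma. The groups did not overlap for 12 of them, 4 lower and 8 higher, beside 32.6% of all genes tested, 18.3% lower and 14.3% higher. The median log2 fold change was 0.08, or 0.14 without Gzmk, which was listed at 0 in both Ob + Exe libraries and at 0.446 and 0.134 in Ob. Gzmb, granzyme B, was at 0.369 and 0.206 in Ob against 1.25 and 0.506 in Ob + Exe (log2 fold change 1.25, SE 0.68). Prf1, perforin, overlapped between groups (0.278 to 0.493). Higher without overlap were also Rab27a, Stx11, Stxbp2 and Unc13d, which serve the docking and release of granules in lymphocytes and granulocytes. Stxbp2 was at 69.4 and 75.1 in Ob against 103 and 84.3 in Ob + Exe (0.37, SE 0.21). Among lower genes, Ccl3, a chemokine, was at 4.0 and 4.23 in Ob against 1.71 and 2.86 in Ob + Exe (-0.86, SE 0.38). The other abundant genes, Srgn (167 to 327) and Lamp1 (113 to 133), overlapped.

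The interleukin-2 and interleukin-15 receptors share the chains Il2rb and Il2rg, and Il2ra adds to them for interleukin-2 alone. Of 15 tested genes of this pathway other than Il2ra, 8 were lower and 7 higher, the median log2 fold change was -0.02, and 0 were called. An unadjusted p under 0.05 in limma was reached by 2 of the 15, beside 5.05% of all genes tested. Both had a log2 fold change under 1. Il15, the cytokine that NK cells need to develop and survive, was at 8.22 and 8.50 in Ob against 14.0 and 13.7 in Ob + Exe (log2 fold change 0.72, SE 0.23, unadjusted p of 0.0196). Socs3, a feedback inhibitor of cytokine signalling, was at 3.28 and 3.30 in Ob against 6.71 and 5.50 in Ob + Exe (0.87, SE 0.29, unadjusted p of 0.0261). In both genes the groups did not overlap. Without overlap, 2 genes of this list were higher and 2 lower, beside 14.3% and 18.3% of all genes tested. Il2rb was at 3.42 and 3.40 in Ob against 3.07 and 3.38 in Ob + Exe (-0.08, SE 0.31). Il2rg was at 20.4 and 11.8 in Ob against 13.3 and 15.0 in Ob + Exe (-0.14, SE 0.32). The signal transducers Jak1 (34.3 to 50.5) and Stat5b (17.5 to 23.0) overlapped between groups.

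Of the 266 segments of T cell receptor genes in the tables, 72 were above 0 in some library and 39 were tested, with 4 called lower and 1 higher, where 3.74% of all tested genes were called. The 4 lower ones, Trbv1, Trbj1-2, Trbd1 and Trgj4, were listed at 0 in both Ob + Exe libraries. They reached the minimum level through Ob alone, so their count supports no difference. With limma voom on read equivalents 4 of the 5 calls were lost (all but Trbv1), and with a pseudocount of 1 FPKM those of Trbv1, Trbd1 and Trgj4. Trbv1 had 33 and 18 read equivalents in Ob, Trbj1-2 had 8 and 9, and the other 2 had at most 3. The higher one, Traj40, was at 0.173 and 0 FPKM in Ob against 2.29 and 1.22 in Ob + Exe, which is 1, 0, 8 and 4 read equivalents. With a mean of 0.086 FPKM in Ob, Traj40 reached the minimum level only through Ob + Exe, so its call supports no difference either. The segments of highest level beside Trbj1-2 were Trbj1-1, with 14 and 8 read equivalents in Ob against 0 and 6 in Ob + Exe, and Trbv13-2, with 31 and 13 in Ob against 59 and 25 in Ob + Exe. Segments above 0 numbered 59 and 20 in Ob against 10 and 20 in Ob + Exe.

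The remaining marker lists of marrow cells gave no called gene by the same thresholds. Over all genes tested, 18.3% were lower and 14.3% higher without overlap. Of 6 plasmacytoid dendritic cell genes, 5 were lower and 1 higher with overlap throughout, and their summed FPKM was 92.5 and 98.8 in Ob against 121 and 53.6 in Ob + Exe. Irf8 lay between 28.8 and 49.9 and Bst2 between 16.0 and 56.0, and Cox6a2 was listed at 0 in the second Ob + Exe library. Of 6 monocyte and macrophage genes, 3 were lower with overlap and 3 (Adgre1, Vcam1 and Ccr2) higher without overlap, with a summed FPKM of 462 and 396 in Ob against 391 and 472 in Ob + Exe, led by Ly6c2 (249 to 333) and Ccr2 (52.7 to 64.7). Of 7 erythroid genes, 6 were lower and 1 higher, with a summed FPKM of 57966 and 53160 in Ob against 41446 and 65450 in Ob + Exe. Among these, Hba-a1 alone did not overlap, at 23450 and 23931 in Ob against 22542 and 20060 in Ob + Exe. S100a9, a neutrophil gene next to S100a8 in level, lay between 9595 and 18288. The part of these cell types in the values of the 10 genes was not tested.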

How the data were processed

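The authors trimmed reads with fastp, removed rRNA reads, aligned the rest to GRCm38 with HISAT2 and quantified GENCODE vM25 transcripts with StringTie. Versions of these tools are not given in the sources used here. The deposited tables hold, for each transcript, a read coverage (a signal not normalized for depth) and FPKM. The authors tested with DESeq2, which takes read counts that were not used here.

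From these tables, FPKM were summed per gene, scaled with median-of-ratios factors (0.945 to 1.04), and limma 3.58.1 was run on log2(FPKM + 0.1) in R 4.3.3 (lmFit, eBayes with trend, 2 residual and 3.79 prior degrees of freedom). Fold changes on this scale understate those of low genes. Genes with a mean under 0.1 FPKM were left out. A called gene has p under 0.05 before Benjamini-Hochberg adjustment and more than 1 on the log2 scale. Coverage does not give whole reads, so read equivalents are given. Depth was 44310505 to 53038186 read equivalents per library, and 2 libraries a group limit the precision. The fit was tested on simulated data. Python 3.11.15, pandas 2.3.3 and matplotlib 3.10.9 served for tables and figures.

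The 10 genes, the lists and the tests were chosen with earlier results of these data known, and the lists were written from general knowledge. Genes named are the 10 genes, every called gene and the 3 of highest mean FPKM in each wider list, and the 2 of highest mean in each list of other cell types. Others were named after their values were seen. Not every gene that this rule names is reported here. Transcript structures came from GENCODE vM21 (GRCm38), where all 32 were the same. The replicate numbers come from the labels. No source says that they pair mice, so the block was an alternative. Other alternatives were the minimum, the pseudocount, the scaling, the trend, limma voom on read equivalents and leaving out each library. The crossed block was added after seeing the data. Il2ra, Klrb1c and Cd3e overlap other annotated genes, of which only Gm37881, within Il2ra, had a value above 0 (0.265 FPKM in the first Ob library).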

Additional observations from a re-analysis of the deposited data

How the results depend on the processing

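The number of the 10 genes called fell from 1 to 0 with a minimum of 1 FPKM, no minimum, a pseudocount of 1, quantile normalization and the replicate block, and was 0 to 1 when single libraries were left out. Over the wider lists, 7 calls became 1 (minimum of 1 FPKM), 2 (pseudocount of 1) and 4 (limma voom), and 13 to 17 without single libraries. Over all genes, 696 calls became 270 (minimum of 1 FPKM), 222 (pseudocount of 1), 1060 (no trend) and 450 (limma voom), and 744 to 1920 without single libraries (1260 without the first and 1920 without the second Ob + Exe library). Quantile normalization called 416 lower and 245 higher, against 510 and 186. Leaving out a library leaves 1 in its group, which is then assumed to vary like the other group. The log2 fold change of Cd3e was -0.043 with a pseudocount of 1 and -0.024 with limma voom. Without single libraries it ran from -1.07 (second Ob library left out) to 1.34 for Cd3e, -1.03 to 0.84 (second Ob + Exe library left out) for Cd3d, -1.10 to 0.17 for Cd3g, -0.24 to 0.66 for Nkg7, -0.14 to 0.55 for Gzma and -0.072 to 1.13 for Klrb1c. Cd4, Cd8a, Il2ra and Ncr1 kept their sign in all 14 alternatives. Differences between the libraries numbered 1 and 2 correlated at -0.11 between groups over 18596 genes, and no source pairs them. The replicate block gave 742 calls over all genes and 18 genes with an adjusted p under 0.05, the crossed block 803 and 11, with 1 of the 10 genes, Il2ra, called in the crossed block. The cause of these changes was not tested.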
